A study of Mus musculus with 38 samples.

Results

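L1MdGf is a young LINE-1 subfamily of the mouse genome, and the deposited tables of transposable elements (TEs) hold its copies under the names L1MdGf_I and L1MdGf_II. The members described here were chosen by name alone, as every TE copy whose family name begins with L1MdGf_. This gave 10982 copies, 3052 of L1MdGf_I and 7930 of L1MdGf_II, which make up 0.290% of the 3793386 TE copies listed. The tables name each copy but give no coordinates, so the position of a copy and its overlap with genes were not analysed here.

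LINE-1 elements are retrotransposons that copy themselves through an RNA intermediate, and a full-length element encodes an RNA-binding protein and a protein with endonuclease and reverse transcriptase activity. Most copies in the genome are truncated or mutated, while the youngest mouse groups (L1MdTf, L1MdGf and L1MdA) include members that still carry a promoter and open reading frames. LINE-1-rich DNA is known to lie largely in lamina-associated domains (LADs), the heterochromatic regions held at the nuclear periphery. The lamins form the filament network under the inner nuclear membrane, LBR is an inner membrane protein that binds heterochromatin, and LAP2B, a product of Tmpo, is an inner membrane protein used here as a marker of chromatin near the periphery. LAP2B signal in EpiLCs also lay outside LADs, for which reason the study did not define LADs by LAP2B at that stage, and this limits every EpiLC and stage comparison given for it.

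The study asked how lamins and LBR hold chromatin at the nuclear periphery during early pluripotency, and measured chromatin contacts by CUT&RUN, in which an antibody directs a nuclease to cut DNA near its target. LAP2B was profiled in naive mouse embryonic stem (mES) cells, kept in 2i and LIF, and in epiblast-like cells (EpiLCs), derived from them with FGF and Activin A. The 4 genotypes compared had 3 libraries per stage. LMNB1 and a secondary antibody control (IGG) were profiled in WT cells alone, with 3 libraries per stage. WT and lamin triple knockout (TKO) lines came from littermate embryos, and TKO cells lack LMNA, LMNB1 and LMNB2. LBRKO cells carry CRISPR-Cas9 frameshift indels in Lbr on the WT background. Quadruple knockout (QKO) cells carry Lbr mutations on the TKO background and come from a single clone, in which an Lbr allele has an in-frame deletion. The WT line was mostly of normal ploidy with some abnormal cells, while the TKO populations reported all carried a trisomy. Line and genotype therefore cannot be told apart. The sources do not say that the 3 libraries of a group came from separate cultures, so p-values measure the spread between these libraries, which may be technical. The TE tables hold no genes, so the targeted genes and the cell states were not checked here.

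Each deposited value is coverage (RPKM) in genomic bins, scaled to a yeast DNA spike-in and given per copy. How bins were joined to copies is not stated. Nearly all values, 99.9997 to 99.9999% per library, lay within 0.05 of a whole multiple of the amount contributed by a single read, so they were treated as sums of reads. The methods name bins of 10 kb for TEs, yet the copies held 2488029 different value patterns over the libraries, while the reference chromosomes (GRCm39) hold 272352 bins of 10 kb and 2723425 of 1 kb. The bin width, and so how much flanking DNA a value covers, was therefore not settled. The libraries held 37407387 to 131279154 reads summed over copies, where a read counts in each copy that shares its bin, and the median L1MdGf copy held 12 to 49 reads per library. At most 2.77% of L1MdGf copies were at 0 in a library. Reads of near-identical copies cannot be placed uniquely. In all 36 libraries, 2055 L1MdGf copies (18.7%) had the same values as another TE copy, and 272 (2.48%) the same as another L1MdGf copy. Whether such copies shared bins or ambiguous reads was not tested. Values of single copies are therefore uncertain. Levels are not per length, and were compared between genotypes, stages and antibodies but not between families.

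The results are given on 2 scales. On the spike-in scale, a value is the mean over the copies of a subfamily as deposited, and a change includes any shift shared by all families. The relative scale divides every library by the value of its median TE family, so a change is relative to the other families. The choice of reference matters for the latter. Dividing by the mean family instead moved the median family, on the log2 scale, by 0.42 in WT LAP2B against IGG. Against WT in naive cells the shift was 0.12 for LBRKO, -0.26 for TKO and -0.20 for QKO. Changes of subfamilies were tested with limma across 1225 TE families with Benjamini-Hochberg adjustment, on log2 values with a pseudocount of 0.1 times the median. Limma pools the spread over families, which on the spike-in scale share the shifts of a library and are not independent. The spike-in p-values from limma can therefore be too small as a measure of the spread between libraries. Exact permutation F tests of the library levels over the 4 genotypes were also run on that scale. These exact tests gave p = 0.00013 for L1MdGf_I and 6.49e-05 for L1MdGf_II in naive cells, and p = 0.0040 and 0.0032 in EpiLCs.

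In naive mES cells, LAP2B over L1MdGf was lower in all 3 mutant genotypes than in WT on the spike-in scale. The 3 WT libraries stood at 1.75, 2.60 and 1.98 for L1MdGf_I and at 1.29, 1.99 and 1.43 for L1MdGf_II. In LBRKO they stood at 1.07, 1.26 and 1.34 for L1MdGf_I and at 0.813, 0.916 and 0.984 for L1MdGf_II. All 3 LBRKO libraries were below all 3 WT libraries for both subfamilies, as were the libraries in 22.3% of all families, where the groups did not overlap in either direction. TKO libraries stood at 0.779, 1.2 and 0.905 for L1MdGf_I and at 0.514, 0.792 and 0.597 for L1MdGf_II. QKO libraries were lowest, at 0.369, 0.325 and 0.380 for L1MdGf_I and at 0.247, 0.232 and 0.248 for L1MdGf_II. Every QKO library lay below every library of the other genotypes, and QKO and WT did not overlap in 99.6% of families.

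**Figure D1:**
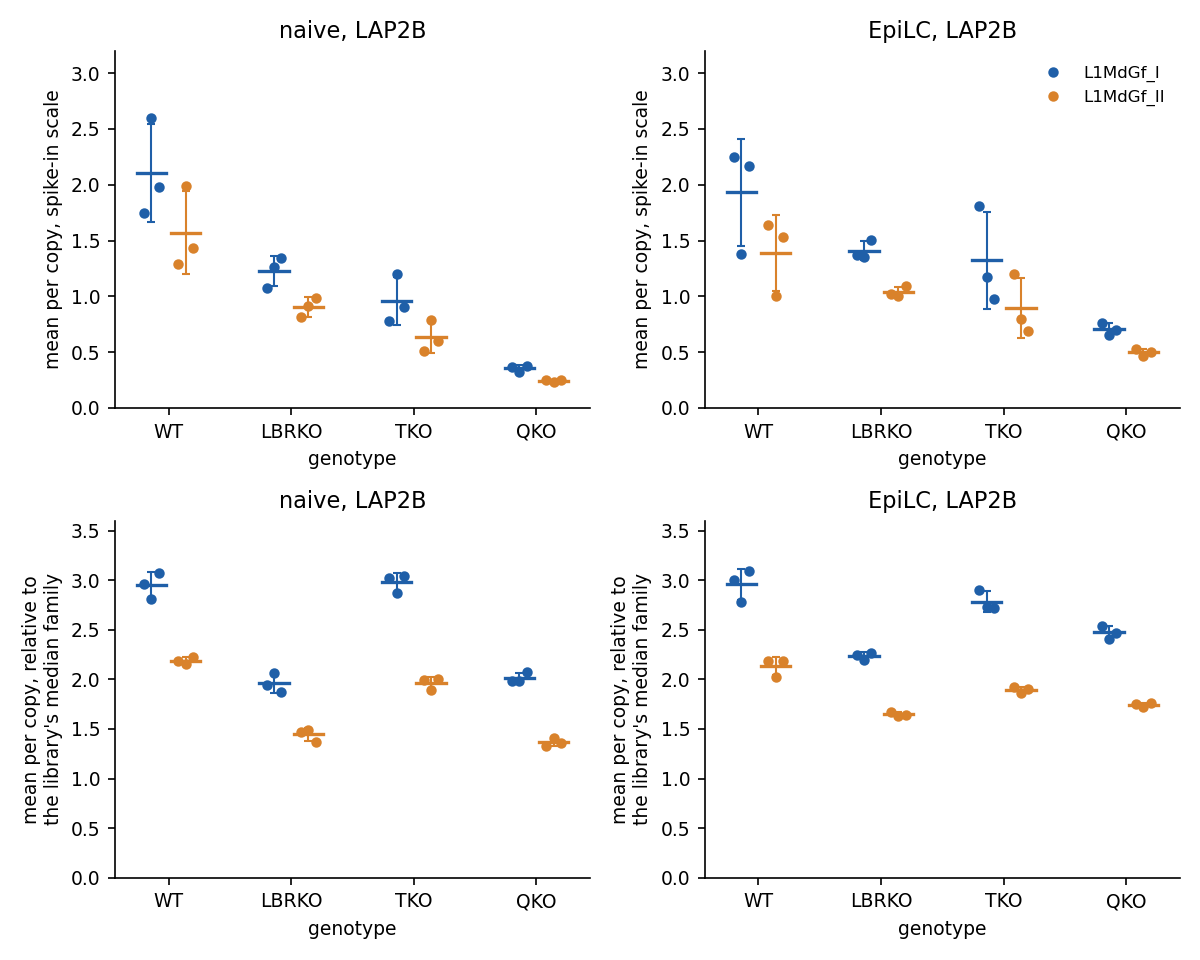
LAP2B over L1MdGf_I (blue) and L1MdGf_II (orange) by genotype in naive mES cells and EpiLCs, as the mean per copy on the spike-in scale (upper panels) and relative to the median TE family of each library (lower panels). Points are single libraries, and the horizontal lines and bars are the mean and SD of 3 libraries. Naive QKO libraries lie at 0.325 to 0.380 for L1MdGf_I on the spike-in scale, below WT at 1.75 to 2.60.

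Against WT, the naive QKO level was 17.0% of WT for L1MdGf_I (log2 change -2.38, SE 0.23, limma adjusted p = 1.58e-24) and 15.5% for L1MdGf_II (-2.44, SE 0.22, adjusted p = 4.04e-27). Percents are ratios of means without the pseudocount, which makes the log2 changes smaller in size at low levels. Without it the QKO differences of mean log2 levels were -2.54 and -2.67. The TKO level was 45.7% and 40.4% of WT (-1.09, adjusted p = 2.82e-06, and -1.24, adjusted p = 1.32e-07). These falls were shared by nearly all TE families, since 99.7% of families were called lower in QKO and 99.4% in TKO, with a median family change of -1.75 and -1.02. LBRKO differed in this respect. L1MdGf fell to 58.2% and 57.6% of WT in LBRKO (-0.74 for both L1MdGf_I and L1MdGf_II, limma adjusted p = 0.020 and 0.019), while 9.71% of families were called lower and the median family stood at -0.19. The LBRKO calls depended on single libraries. The change was -0.65 for L1MdGf_I and -0.67 for L1MdGf_II without LBRKO replicate 1, -0.77 and -0.75 without LBRKO replicate 2, and -0.59 and -0.57 without WT replicate 2, and passed the test in none of these fits.

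Relative to the median family, the levels in naive cells separated LBRKO and QKO, the genotypes without LBR, from TKO and WT. L1MdGf_I stood at 2.97, 2.81 and 3.08 in the WT libraries and at 3.03, 2.87 and 3.04 in the TKO libraries. LBRKO held 1.95, 2.06 and 1.87, and QKO held 1.98, 1.98 and 2.08. LBRKO and QKO libraries lay below all WT and TKO libraries, while WT and TKO overlapped. L1MdGf_II stood at 2.19, 2.15 and 2.23 in WT and at 1.99, 1.89 and 2.00 in TKO. LBRKO held 1.47, 1.49 and 1.37, and QKO held 1.33, 1.41 and 1.36. For L1MdGf_II, TKO libraries lay below WT and above LBRKO and QKO. Libraries of the mutant and WT did not overlap in 74.4% of families for LBRKO, 58.7% for TKO and 80.1% for QKO.

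On this scale L1MdGf_I fell by 0.57 in naive LBRKO (log2, SE 0.042, limma adjusted p = 9.87e-10) and by 0.53 in QKO (adjusted p = 1.33e-09), to 66.5% and 68.2% of WT. L1MdGf_II fell by 0.57 in LBRKO (SE 0.033, limma adjusted p = 1.23e-10) and by 0.64 in QKO (adjusted p = 2.22e-12), to 66.1% and 62.4% of WT. These 4 calls held under every alternative run, including division by the mean family. Among all families, 41.5% were called lower in LBRKO and 42.2% in QKO. In TKO, L1MdGf_I differed by 0.01 (limma adjusted p = 0.80) and L1MdGf_II fell by 0.15 (adjusted p = 0.000913), with 20.8% of families called lower. Dividing by the mean family turned the TKO value of L1MdGf_I to -0.28 (limma adjusted p = 0.0043), whereas the median over copies gave -0.15 and no call (adjusted p = 0.065).

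In direct comparisons between mutants, the order of TKO and LBRKO depended on the scale and on the reference family. Relative to the median family, TKO exceeded LBRKO by 0.58 for L1MdGf_I and 0.42 for L1MdGf_II on the log2 scale (limma adjusted p = 1.82e-09 and 3.85e-09, 37.2% of families called higher), which dividing by the mean family reduced to 0.14 (adjusted p = 0.097) and -0.014 (adjusted p = 0.88). TKO lay below LBRKO on the spike-in scale, by -0.35 for L1MdGf_I (limma adjusted p = 0.13) and -0.50 for L1MdGf_II (adjusted p = 0.027), as 92.5% of families were called lower and the median family stood at -0.84. The L1MdGf_II call was lost without LBRKO replicate 2 or 3 or TKO replicate 1 or 3 (-0.49, -0.44, -0.37 and -0.46), and L1MdGf_I was called without TKO replicate 2 (-0.51) and with the median over copies (-0.56). On the relative scale QKO fell below TKO, by -0.54 for L1MdGf_I and -0.49 for L1MdGf_II on the log2 scale (limma adjusted p = 2.28e-09 and 8.57e-10), where 37.7% of families were called lower. Against LBRKO, QKO differed by 0.04 for L1MdGf_I (SE 0.042, limma adjusted p = 0.46) and by -0.08 for L1MdGf_II (SE 0.033, adjusted p = 0.048), with 25.4% of families called lower. The L1MdGf_II value lost its call without LBRKO replicate 1 or 2 or QKO replicate 1 or 3 (-0.11 to -0.05 over the libraries left out), and dividing by the mean family gave a called -0.30 for L1MdGf_I (limma adjusted p = 0.0012). On the spike-in scale the QKO level of L1MdGf_I lay 1.64 below LBRKO (log2 -1.64, limma adjusted p = 9.53e-13), with 99.9% of families called lower.

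L1MdGf was compared with the 25 families whose names begin with L1Md, the LINE-1 families of the mouse lineage. In naive cells, 25 of 25 were called lower on the relative scale in LBRKO and in QKO, with medians of -0.54 and -0.62. In LBRKO the changes ran from -0.62 (L1MdA_II) to -0.39 (L1MdV_III), and L1MdGf_II and L1MdGf_I ranked 5 and 6 from the lowest. In QKO they ran from -0.74 (L1MdTf_III) to -0.27 (L1MdA_I), and L1MdGf_II ranked 9 and L1MdGf_I 22. In TKO, 20 families were called lower and L1MdA_I alone was called higher (0.28), with L1MdGf_I among the 4 that were not called. The fall of L1MdGf in LBRKO and QKO was thus one that the other L1Md families had too.

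**Figure D2:**
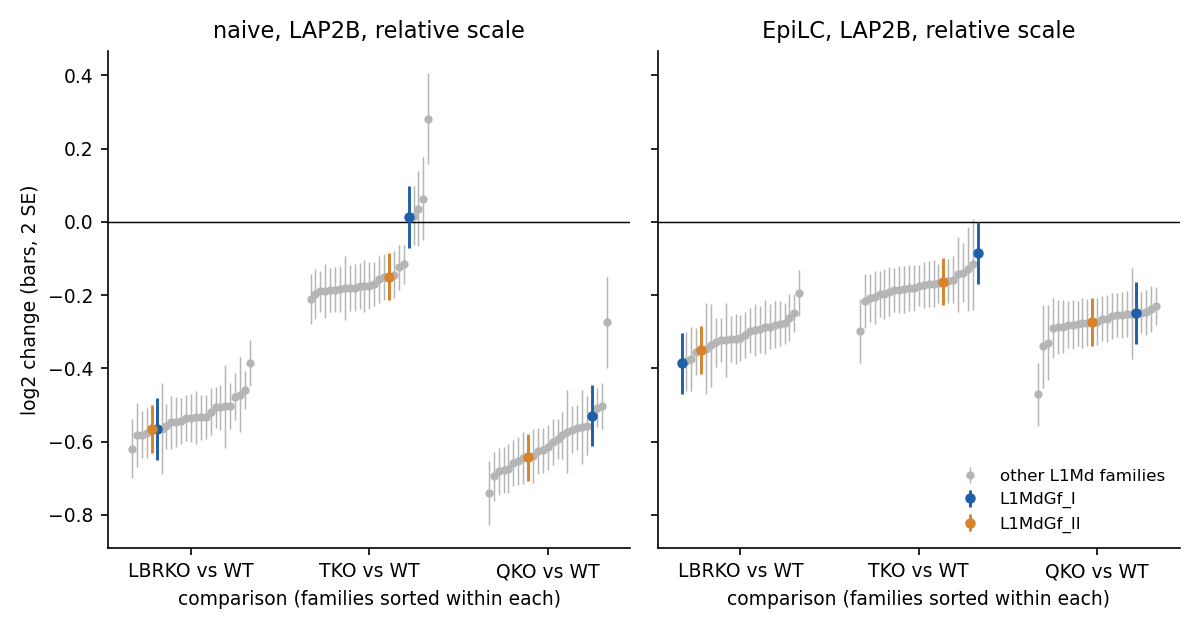
Log2 change of LAP2B against WT on the relative scale for the 25 L1Md families, sorted within each comparison, in naive mES cells and EpiLCs. Points are limma estimates and bars are 2 SE to each side, with L1MdGf_I in blue, L1MdGf_II in orange and the other families in grey. In naive LBRKO and QKO every family lies below 0, while in TKO L1MdGf_I lies at 0.01 and L1MdA_I at 0.28.

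In EpiLCs, the QKO loss against WT on the spike-in scale remained, at a smaller size, with QKO levels near the WT IGG means given below. L1MdGf_I stood at 2.25, 1.38 and 2.17 in WT, with 0.760, 0.655 and 0.699 in QKO, 1.37, 1.36 and 1.5 in LBRKO and 1.81, 1.17 and 0.978 in TKO. L1MdGf_II stood at 1.64, 1.00 and 1.53 in WT, with 0.525, 0.469 and 0.497 in QKO, 1.02, 1.01 and 1.09 in LBRKO and 1.2, 0.801 and 0.685 in TKO. QKO libraries lay below all others, and did not overlap with WT in 99.8% of families, while LBRKO and TKO overlapped with WT through WT replicate 2. QKO fell to 36.5% of WT for L1MdGf_I (-1.36, limma adjusted p = 2.04e-08) and to 35.7% for L1MdGf_II (-1.37, adjusted p = 8.92e-09), as 99.9% of families were called lower and the median family stood at -1.05. LBRKO values of -0.41 and -0.37 were not called (limma adjusted p = 0.999), and were -0.63 and -0.59 without WT replicate 2 and -0.29 and -0.25 without WT replicate 1.

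The TKO value in EpiLCs lay at the threshold. On the spike-in scale it was -0.54 for L1MdGf_I (limma adjusted p = 0.057) and -0.62 for L1MdGf_II (adjusted p = 0.046), with 15.8% of families called lower. For L1MdGf_II the call was lost without TKO replicate 2 or 3 or WT replicate 1 or 3, with edgeR in place of limma (-0.64, adjusted p = 0.056, with 1 of 1225 families called against 194 by limma) and with the median over copies (-0.55, adjusted p = 0.054). The replicate block (-0.62, limma adjusted p = 0.079) and a fit of the 12 EpiLC libraries alone (-0.61, adjusted p = 0.067) also ended the call. For L1MdGf_I it was gained without TKO replicate 1 (-0.79) or WT replicate 2 (-0.76). QKO lay below TKO by -0.82 and -0.75 (limma adjusted p = 0.00673 for both L1MdGf_I and L1MdGf_II, 99.3% of families called lower), which were -0.58 and -0.53 and not called without TKO replicate 1.

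Relative to the median family, EpiLC values of L1MdGf_I were 3.00, 2.78 and 3.09 in WT, with 2.54, 2.41 and 2.47 in QKO, 2.24, 2.20 and 2.27 in LBRKO and 2.90, 2.73 and 2.72 in TKO. L1MdGf_II stood at 2.19, 2.03 and 2.18 in WT, with 1.76, 1.73 and 1.76 in QKO, 1.67, 1.63 and 1.64 in LBRKO and 1.92, 1.86 and 1.90 in TKO. LBRKO was lowest for both subfamilies, and LBRKO and QKO did not overlap with WT, as in 59% and 59.5% of families. LBRKO fell by 0.39 for L1MdGf_I and by 0.35 for L1MdGf_II (limma adjusted p = 1.44e-06 and 6.38e-07, 28.7% of families called lower), to 75.6% and 77.4% of WT. QKO fell by 0.25 and 0.27 (limma adjusted p = 0.000101 for L1MdGf_I and 2.53e-06 for L1MdGf_II, 26.5% of families called lower), to 83.6% and 81.9% of WT. These 4 calls ended after division by the mean family, at -0.14 and -0.11 in LBRKO and -0.21 and -0.24 in QKO.

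TKO in EpiLCs was -0.08 for L1MdGf_I (limma adjusted p = 0.14) and fell by 0.16 for L1MdGf_II (adjusted p = 0.000944, 18.2% of families called lower). The L1MdGf_I value was called without WT replicate 2 (-0.13), and the L1MdGf_II call was lost with the mean family (-0.27, adjusted p = 0.057) and with the median over copies (-0.11, adjusted p = 0.31). Of the 25 L1Md families, LBRKO and QKO were called lower in 25 each and TKO in 22. L1MdGf_I held the lowest of the 25 values in LBRKO and the highest in TKO.

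The effect of a genotype was compared between stages by an interaction term, and was smaller in EpiLCs than in naive cells for QKO. The EpiLC change minus the naive change in QKO, relative to the median family, was 0.28 for L1MdGf_I (SE 0.060, limma adjusted p = 0.00076) and 0.37 for L1MdGf_II (SE 0.046, adjusted p = 3.9e-06). The term was called higher in 24.5% of families and in 24 of the 25 L1Md families, and both L1MdGf calls held under every alternative run. On the spike-in scale it was 1.02 and 1.07 (limma adjusted p = 0.0158 for L1MdGf_I and 0.0121 for L1MdGf_II, 59.8% of families called higher), and all 25 L1Md families were called. The spike-in calls were lost without WT EpiLC replicate 2 (0.80 and 0.86) or WT naive replicate 2 (0.87 and 0.90), for L1MdGf_I also without QKO EpiLC replicate 1 (0.96), and with a pseudocount of 1 times the median (0.59 and 0.55).

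In LBRKO the relative interaction was 0.18 for L1MdGf_I (limma adjusted p = 0.032) and 0.22 for L1MdGf_II (adjusted p = 0.00247), with 14.1% of families called higher. Leaving out single libraries gave 0.14 to 0.21 for L1MdGf_I and lost the call for 7 of 12 libraries. Dividing by the mean family gave 0.28 and 0.31 with no call, as did the median over copies with 0.16 and 0.22. In TKO the interaction was -0.10 for L1MdGf_I and -0.01 for L1MdGf_II on the relative scale, and 0.55 and 0.62 on the spike-in scale (limma adjusted p = 0.12 and 0.099), with no call. The spike-in term was called without TKO EpiLC replicate 3 (0.73 and 0.78) or TKO naive replicate 2 (0.71 and 0.78), and for L1MdGf_II also without WT naive replicate 1 (0.75).

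In WT cells, no stage difference of L1MdGf was called for any antibody relative to the median family. LAP2B changed by 0.00 for L1MdGf_I and -0.04 for L1MdGf_II on the relative scale (SE 0.042 and 0.033, limma adjusted p = 0.96 and 0.45), LMNB1 by 0.06 and 0.02, and IGG by -0.01 and -0.05. Dividing by the mean family gave a called lower LAP2B value in EpiLCs, at -0.36 for L1MdGf_I (limma adjusted p = 3.2e-04) and -0.39 for L1MdGf_II (adjusted p = 2.7e-04), and LMNB1 turned to -0.25 for L1MdGf_I (adjusted p = 0.078) and a called -0.30 for L1MdGf_II (adjusted p = 0.024). Since the call depended on the reference family, the stage difference in WT was not settled by these data. On the spike-in scale LAP2B over L1MdGf_I differed by -0.14 and LMNB1 by 0.14, with no call. IGG over L1MdGf_I stood at 0.396, 0.241 and 0.391 in naive cells and at 0.509, 1.18 and 0.409 in EpiLCs on that scale. Every EpiLC IGG library lay above every naive one, as the stages did not overlap in 90.7% of families, with 0.88 for L1MdGf_I (log2, SE 0.60, limma adjusted p = 0.17) and 0.83 for the median family. Without EpiLC IGG replicate 2 the L1MdGf_I value was 0.43, and it ran up to 1.18 over the other libraries left out. The part of this background shift in the spike-in interactions was not tested. On that scale, mean QKO LAP2B over L1MdGf_I was 0.358 in naive cells and 0.704 in EpiLCs, beside WT IGG means of 0.343 and 0.698. For L1MdGf_II the QKO means were 0.243 and 0.497, beside WT IGG means of 0.229 and 0.451. The spike-in constant of IGG is not stated, so whether QKO lay at background on this scale was not tested.

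LAP2B and LMNB1 in WT cells were compared with IGG, the control that measures background cutting. L1MdGf_I stood at 3.10, 2.78 and 2.89 in naive IGG libraries and at 2.77, 3.07 and 2.63 in naive LMNB1 libraries, relative to the median family. All 3 antibodies overlapped for L1MdGf_I, LAP2B in WT included. L1MdGf_II stood at 2.01, 1.89 and 1.97 in IGG and at 2.19, 2.27 and 2.07 in LMNB1. For L1MdGf_II, IGG libraries lay below all LAP2B and LMNB1 libraries of WT, and the libraries did not overlap in 62.4% and 66.9% of families.

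LAP2B over IGG in naive WT cells was 0.01 for L1MdGf_I (log2, SE 0.051, limma adjusted p = 0.83) and 0.15 for L1MdGf_II (SE 0.033, adjusted p = 0.000318), while 27.3% of families were called higher. LMNB1 over IGG was -0.05 (adjusted p = 0.41) for L1MdGf_I and 0.15 for L1MdGf_II (limma adjusted p = 0.000428), with 30.7% of families called higher. Among the 25 L1Md families, 21 were called higher in LAP2B, and L1MdGf_I held the lowest value. The L1MdGf_I result depended on the summary. The median over copies gave 0.22 for LAP2B (limma adjusted p = 0.0033) and 0.19 for LMNB1 (adjusted p = 0.0076), and dividing by the mean family gave a called 0.46 for LAP2B (adjusted p = 5.2e-05) and a called 0.63 for LMNB1 (adjusted p = 5.9e-08). In EpiLCs, IGG stood at 3.02, 2.99 and 2.71 for L1MdGf_I and at 1.88, 1.93 and 1.85 for L1MdGf_II, and LMNB1 stood at 2.91, 2.89 and 3.05 and at 2.17, 2.23 and 2.23. LAP2B over IGG was again called for L1MdGf_II alone (0.17, limma adjusted p = 0.000243, against 0.02 for L1MdGf_I), as was LMNB1 (0.22, adjusted p = 3.9e-06, against 0.02), with 22.2% and 31.8% of families called higher. With the mean family as reference, L1MdGf_I was called in EpiLCs too, at 0.31 for LAP2B (limma adjusted p = 0.0086) and 0.58 for LMNB1 (adjusted p = 5.9e-07), and the median over copies ended the LAP2B call of L1MdGf_II (0.10, adjusted p = 0.21).

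**Figure D3:**
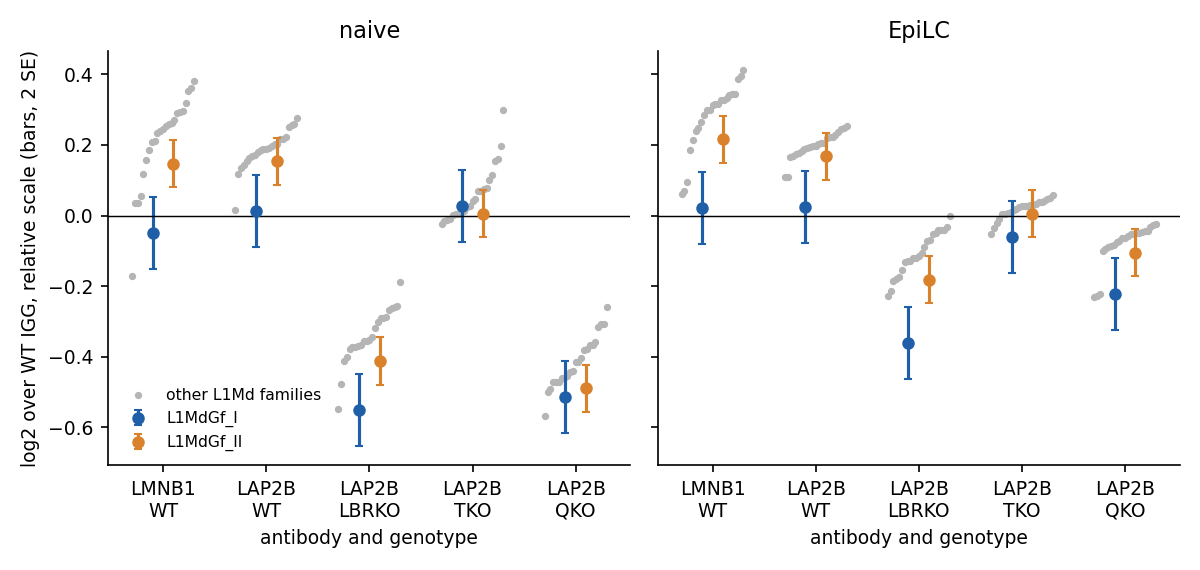
Log2 of LMNB1 in WT and of LAP2B in each genotype over WT IGG of the same stage, on the relative scale, for L1MdGf_I (blue) and L1MdGf_II (orange), with 2 SE to each side, and for the other L1Md families (grey points). In naive LBRKO and QKO both subfamilies lie below WT IGG, at -0.55 to -0.41, while in TKO they lie at 0.03 and 0.00.

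Set against WT IGG, LAP2B over L1MdGf lay below the control level in naive cells without LBR on the relative scale. In naive LBRKO it was -0.55 for L1MdGf_I and -0.41 for L1MdGf_II (limma adjusted p = 2.02e-09 and 2.51e-10, 33% of families called lower), and in QKO -0.51 and -0.49 (adjusted p = 1.86e-09 for L1MdGf_I and 1.4e-12 for L1MdGf_II, 36.8% called lower). With the mean family, LBRKO gave 0.04 and 0.17 with no call, so its position below IGG depends on the reference, whereas the QKO calls held. TKO values of 0.03 and 0.00 were not called. In EpiLCs, LBRKO was -0.36 and -0.18 (limma adjusted p = 1.2e-05 for L1MdGf_I and 0.00017 for L1MdGf_II, 17.6% called lower), which turned to 0.16 and a called 0.33 with the mean family. With the median over copies these were -0.17 and -0.11 and not called. QKO in EpiLCs was -0.22 for L1MdGf_I (adjusted p = 0.026, 0.327% called lower), a call lost without any QKO library or without IGG replicate 1 or 2, and -0.11 for L1MdGf_II (limma adjusted p = 0.12). With the mean family as reference these turned to 0.095 and a called 0.21 (limma adjusted p = 0.049), and the median over copies gave -0.098 for L1MdGf_I (adjusted p = 0.99), so QKO in EpiLCs had no settled position against IGG. IGG was profiled in WT only, so a change of the background in the mutants was not tested.

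Single copies were set against IGG in the same way. In naive WT, the median copy of L1MdGf_I and of L1MdGf_II had log2 LAP2B over IGG of 0.10 and 0.15, against -0.12 over all TE copies, and 61.2% and 64.1% of copies lay above 0 against 43.5% of all copies. In LBRKO the medians were -0.47 and -0.42, and 17.0% and 21.4% of copies lay above 0 against 40.7% of all copies. In QKO they were -0.54 and -0.53, with 12.1% and 16.5% above 0 against 42.7% of all copies. TKO medians were 0.01 and -0.02, with 50.8% and 48.1% above 0 against 47.8% of all copies. L1MdTf and L1MdA copies had much the same shares above 0, at 64.1% and 64.6% in naive WT and 11.2% and 16.4% in naive QKO. In naive LBRKO their shares were 16.3% and 22.2%. In EpiLC QKO, 32.5% of L1MdGf_I and 41.8% of L1MdGf_II copies lay above 0, against 51.0% of all copies.

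The relation of L1MdGf to the other young groups was followed by ratios within each library, which need no scaling. The log2 ratio of L1MdGf over L1MdTf in naive cells was -0.54 ± 0.032 for WT, -0.59 ± 0.011 for LBRKO, -0.59 ± 0.0052 for TKO and -0.52 ± 0.033 for QKO (mean ± SD, n = 3, exact permutation F test over the 4 genotypes, two-sided by construction, p = 0.012, adjusted over 6 ratios p = 0.014). For EpiLCs it was -0.66 (WT), -0.68 (LBRKO), -0.60 (TKO) and -0.54 (QKO) (exact p = 0.0088, adjusted p = 0.013). L1MdGf over L1MdA ranged from 0.05 to 0.10 in naive cells (exact p = 0.037) and from 0.09 to 0.14 in EpiLCs (exact p = 0.0012, adjusted p = 0.0070). The naive value was lost with the replicate block (exact p = 0.10) and with the median over copies (exact p = 0.77). L1MdGf_I over L1MdGf_II was 0.43 and 0.44 in naive WT and LBRKO and 0.60 and 0.56 in TKO and QKO (exact p = 0.0045, adjusted p = 0.013), and 0.47, 0.44, 0.56 and 0.50 in EpiLCs (exact p = 0.0069). TKO and QKO, the genotypes without lamins, had the highest mean ratios of L1MdGf_I to L1MdGf_II, but with the median over copies the exact p was 0.957 in naive cells and 0.40 in EpiLCs. With that summary the ratio to L1MdTf gave exact p = 0.38 and 0.36. Between any pair of genotypes, 3 libraries against 3 cannot give an exact p below 0.1.

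L1MdGf copies were next ranked by LMNB1 over IGG in WT cells of the same stage and divided into 4 classes of 2745 or 2746 copies. The ranking did not use LAP2B or any mutant. L1MdGf_I made up 30.0% of class 1, the lowest, and 20.6% of class 4, the highest. The lamina contrast is the log2 LAP2B level of class 4 over class 1 within a library and is free of the library scale. The naive WT libraries gave 0.10, 0.27 and 0.09, and those of QKO gave -0.60, -0.46 and -0.65. LBRKO libraries gave 0.00, -0.19 and -0.08, and TKO libraries -0.11, -0.25 and -0.14. WT libraries were all positive, QKO libraries were all lower than any other, and LBRKO overlapped with TKO.

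The lamina contrast differed between genotypes in naive cells (WT 0.15 ± 0.10, LBRKO -0.09 ± 0.10, TKO -0.17 ± 0.07 and QKO -0.57 ± 0.10, mean ± SD, n = 3, exact permutation F test, p = 0.00026). The EpiLC values were 0.20 ± 0.07 for WT, 0.12 ± 0.04 for LBRKO, -0.10 ± 0.01 for TKO and -0.17 ± 0.01 for QKO (n = 3, exact permutation F test, p = 6.49e-05). The class with the highest LMNB1 over IGG had the largest QKO loss, though not the highest LMNB1. In naive WT its mean LMNB1 was 2.21 on the relative scale, against 1.54, 2.75 and 2.93 in classes 1 to 3, and its mean IGG was the lowest at 1.35. The same contrast was -0.77 in naive WT IGG and 0.52 in naive WT LMNB1, which both entered the ranking. How far a fall of LAP2B towards background would lower the contrast was not tested. In naive QKO the log2 change against WT on the relative scale was -0.18, -0.66, -0.78 and -0.91 from class 1 to class 4, and on the spike-in scale 22.0%, 15.8%, 14.5% and 13.1% of the WT level was left. In naive LBRKO the change was -0.42, -0.61, -0.66 and -0.66, and in TKO it was 0.06, -0.06, -0.13 and -0.26.

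**Figure D4:**
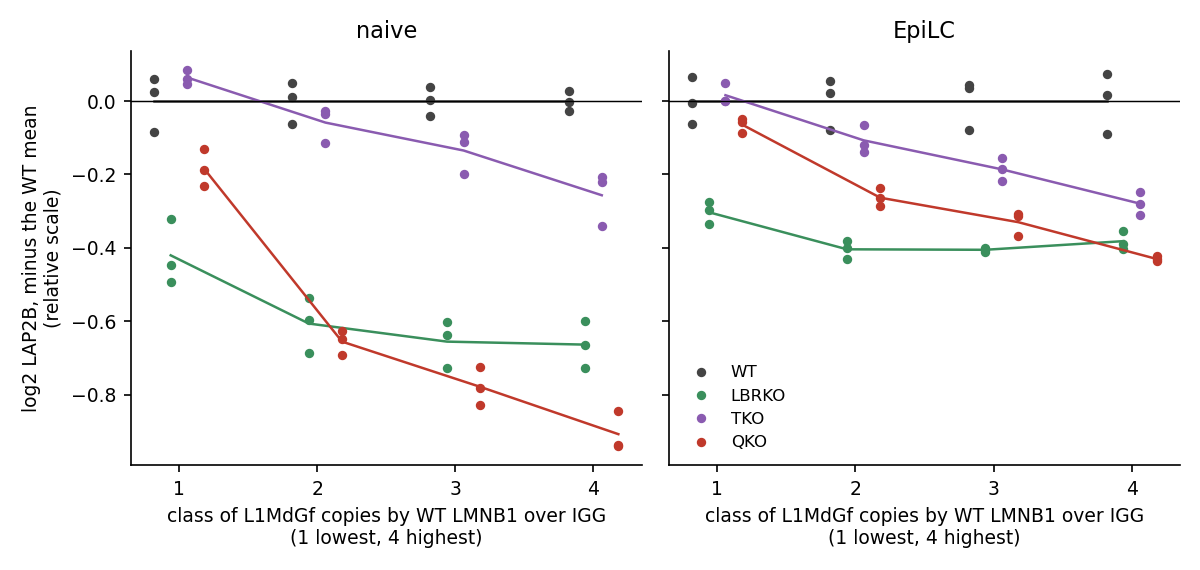
Log2 LAP2B of L1MdGf copies on the relative scale, minus the WT mean of the same class, for 4 classes of copies ranked by WT LMNB1 over IGG of the same stage. Points are single libraries and lines join the means of 3 libraries. Naive QKO falls from -0.18 in class 1 to -0.91 in class 4, TKO from 0.06 to -0.26, and LBRKO lies between -0.42 and -0.66.

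In EpiLCs the change from class 1 to class 4 was -0.06, -0.26, -0.33 and -0.43 in QKO, 0.02, -0.11, -0.19 and -0.28 in TKO and -0.30, -0.40, -0.41 and -0.38 in LBRKO. The LBRKO changes ran from -0.41 to -0.30 with these classes. The classes rest on noisy single copies. Of class 4 copies in naive cells, 47.4% were in class 4 in EpiLCs. With classes taken from the other stage, the naive contrast was 0.35 in WT and -0.37 in QKO, and the EpiLC contrast was -0.08 and -0.10 in WT and LBRKO and -0.33 and -0.38 in TKO and QKO. With classes by LMNB1 alone, the naive difference of the contrast from WT moved from -0.32 to -0.083 for TKO and from -0.24 to -0.41 for LBRKO. The EpiLC difference then moved from -0.30 to -0.20 for TKO and from -0.079 to -0.24 for LBRKO, so the order of TKO and LBRKO depended on the ranking, while QKO stayed lowest.

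Ranking the copies by WT IGG alone gave classes of low and high IGG value, which may follow the length of a copy as well as its background. LAP2B of class 4 over class 1 was 2.85 for WT, 2.66 for LBRKO, 2.97 for TKO and 2.73 for QKO in naive cells (log2, exact permutation F test, n = 3, p = 0.000195), and 2.95, 2.82, 2.97 and 2.84 in EpiLCs (exact p = 0.0208). The EpiLC value was lost with the replicate block (exact p = 0.061). High LAP2B in copies with high IGG carries no information of its own, since values are not per length. Mean LMNB1 in naive WT rose likewise, from 0.782 in class 1 to 5.25 in class 4. Only the differences between genotypes are read here. LBRKO and QKO libraries overlapped with each other and lay below all WT and TKO libraries at both stages. With classes from the other stage the naive QKO difference from WT went from -0.11 to -0.0018.

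Single copies varied widely within each subfamily. In naive WT the median copy stood at 2.04 for L1MdGf_I and 1.52 for L1MdGf_II on the relative scale, the 10th percentiles at 0.779 and 0.496 and the 90th percentiles at 6.74 and 5.33. The highest 0.1 of copies carried 29.0% of the LAP2B signal of L1MdGf_I and 32.2% of that of L1MdGf_II. The means of the subfamilies are therefore weighted towards those copies. Naive WT IGG had much the same spread, with 10th percentiles of 0.741 and 0.515 and 90th percentiles of 6.51 and 4.91. The highest 0.1 of copies carried 32.9% and 32.6% of its signal. The spread is thus not particular to LAP2B, in values that are not per length.

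Copies were tested one by one with limma across 3414048 TE copies, after leaving out the lowest 0.1 by mean level. Of the 10982 L1MdGf copies, 10138 were tested (2967 of L1MdGf_I and 7171 of L1MdGf_II) and 844 were not. Before this filter, the median L1MdGf copy held 36, 25 and 26 reads in the naive WT LAP2B libraries. The median TE copy held 18, 12 and 12. L1MdGf copies may thus be easier to call than TE copies in general, which the shares of all copies do not allow for. In naive QKO on the relative scale, 3956 L1MdGf copies were called lower, where 18.3% of all copies were, and 281 higher, where 25.1% of all copies were. The median change of L1MdGf copies was -0.72 against -0.05 over all copies. In LBRKO, 2313 L1MdGf copies were called lower (8.18% of all copies) and 164 higher (14.3% of all copies), with a median of -0.59 against 0.06. In TKO, 225 L1MdGf copies were called lower (1.84% of all copies) and 129 higher (7.7% of all copies), with a median of -0.16 against 0.08. Libraries did not overlap, with QKO below WT, in 4774 L1MdGf copies (23.3% of all copies), and with QKO above WT in 353 (28% of all copies).

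**Figure D5:**
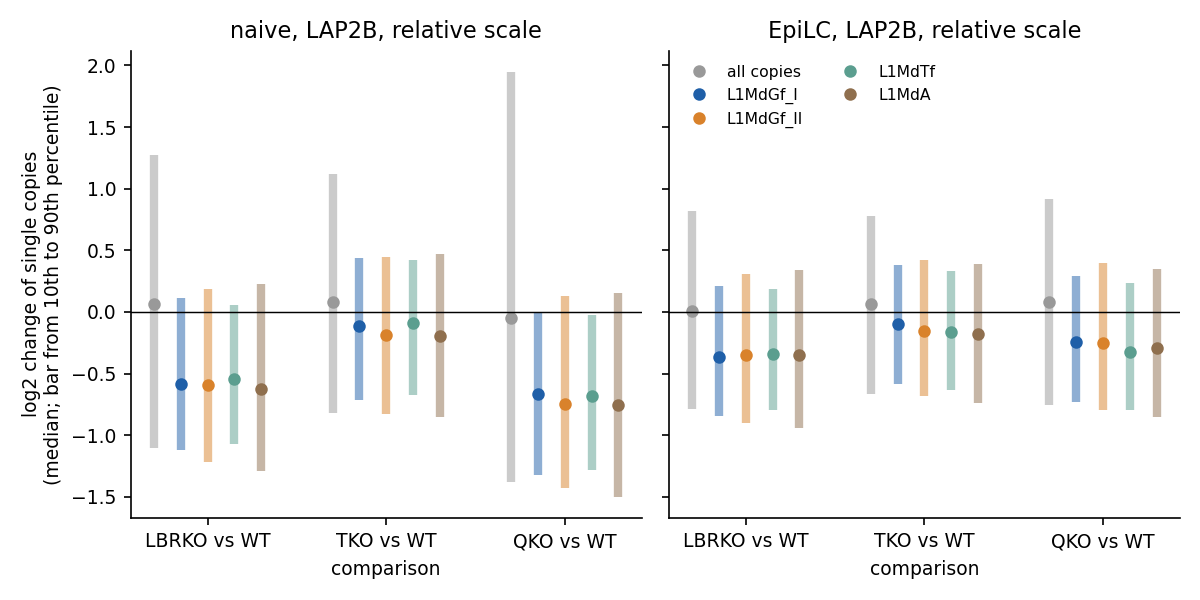
Log2 change of LAP2B against WT in single copies on the relative scale, for all tested TE copies, L1MdGf_I, L1MdGf_II, L1MdTf and L1MdA. Points are medians over copies and bars run from the 10th to the 90th percentile. In naive LBRKO and QKO the median L1MdGf copy lies at -0.59 and -0.72, while the median of all copies lies at 0.06 and -0.05.

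The LBRKO and TKO counts moved with single libraries while the QKO counts stayed within 1.5 times. The lower count in LBRKO was 1349 if LBRKO replicate 3 was left out and 1488 without WT replicate 2. The higher count was 108 and 102 without LBRKO replicates 1 and 3 and 98 without WT replicate 2. In TKO the lower count was 118 without TKO replicate 2 and 134, 83 and 126 without WT replicates 1, 2 and 3. The higher count was 82 without TKO replicate 2 and 59 without WT replicate 2. Dividing by the mean copy gave 356 lower and 83 higher in TKO. The share of copies called lower in naive QKO was 39.0% for L1MdGf, 42.4% for L1MdTf and 39.6% for L1MdA.

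On the spike-in scale, 9735 L1MdGf copies were called lower in naive QKO, where 68.6% of all copies were, and 30 higher (2.87%). Percents in parentheses here are shares of all tested TE copies. In TKO, 7069 were called lower (41.3%), a count that was 4562 without TKO replicate 1 and 4083 without WT replicate 2. In LBRKO, 2588 were called lower (11%), a count that was 1463 and 1558 without LBRKO replicates 1 and 2 and 793 without WT replicate 2. The higher counts there were 101 in LBRKO (9.5%) and 14 in TKO (0.778%), and 42 to 83 and 8 to 22 over the single libraries left out. In EpiLCs, 7401 copies were called lower in QKO (40.7% of all copies) and 5 higher (0.0799%). TKO had 171 lower (1.16%) and 2 higher (0.0298%), and LBRKO 48 lower (0.403%) and 8 higher (0.888%). Leaving out single libraries moved the lower counts widely, to 1 to 752 in TKO and 6 to 114 in LBRKO.

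On the relative scale in EpiLCs few L1MdGf copies were called. The percents beside these counts are shares of all tested TE copies, not of L1MdGf copies. In LBRKO, 204 were lower (0.656%) and 15 higher (1.59%), with a median of -0.36, and in QKO 108 were lower (0.531%) and 22 higher (1.61%), with a median of -0.25. TKO had 4 lower (0.0359%) and 4 higher (0.0535%). The lower count in LBRKO was 83, 51 and 94 without LBRKO replicates 1, 2 and 3 and 45 and 41 without WT replicates 1 and 3, and the higher count 6, 6 and 8 without LBRKO replicates 1, 2 and 3. The lower count in QKO was 31, 35 and 51 without QKO replicates 1, 2 and 3 and 28 and 48 without WT replicates 1 and 3, and the higher count was 6, 6 and 9 without QKO replicates 1, 2 and 3 and 12 without WT replicate 1.

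The copies that moved most in naive QKO were taken from 3711 called copies whose QKO and WT libraries did not overlap, 253 higher and 3458 lower. This pool served only the choice of copies. The share of all TE copies that met both conditions was not computed. The named copies were chosen for this change, so the naive values, which share the WT libraries of that choice, are a description with no test. L1MdGf_II_dup2631 had 60, 56 and 62 reads in WT libraries, against 15, 4 and 2 in QKO, 56, 43 and 34 in LBRKO and 33, 17 and 26 in TKO. Its log2 change was -3.10 in naive QKO, while its EpiLC QKO change of -0.87 was not called (limma adjusted p = 0.22). L1MdGf_II_dup468 had 18, 12 and 18 reads in WT and 2, 0 and 0 in QKO, too few for a fold change.

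The copies that rose most bear consecutive numbers in the annotation and were high in TKO and in QKO, which was made from the TKO line. Whether their level follows the line or the loss of lamins was not tested. L1MdGf_II_dup5409 had 20, 5 and 5 reads in naive WT libraries and 22, 12 and 22 in LBRKO, against 1185, 1008 and 831 in QKO and 235, 112 and 234 in TKO. On the relative scale it stood at 0.920, 0.327 and 0.324 in WT, at 13.6, 12.6 and 15.7 in TKO and at 70.4, 49.2 and 64.8 in QKO. Every TKO and QKO library lay above every WT and LBRKO library. Its log2 change was 6.76 in QKO and 4.64 in TKO, and 0.86 in LBRKO, whose read counts overlapped with those of WT. In EpiLCs, a stage the choice did not use, it was 4.64 in QKO (limma adjusted p = 1.12e-15), 3.32 in TKO (adjusted p = 1.94e-10) and -0.42 in LBRKO (adjusted p = 0.46).

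L1MdGf_II_dup5408 had 9, 8 and 4 reads in naive WT libraries and 3, 8 and 8 in LBRKO, against 521, 449 and 298 in QKO and 104, 22 and 87 in TKO. The log2 change was 5.72 in QKO and 3.24 in TKO, and in EpiLCs 3.56 in QKO (limma adjusted p = 9.61e-09) and 2.26 in TKO (adjusted p = 0.00136). In naive WT libraries neither copy had more LMNB1 than IGG. L1MdGf_II_dup5409 stood at 0.338, 0.523 and 0.389 in LMNB1 and at 1.57, 1.68 and 1.43 in IGG on the relative scale, and L1MdGf_II_dup5408 at 0.169, 0.448 and 0.389 in LMNB1 and at 0.784, 0.762 and 0.744 in IGG. The read counts of these copies may include reads of near-identical copies, and their place in the genome was not analysed here.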

How the data were processed

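The authors mapped CUT&RUN reads to mm39 with Bowtie2 (per the methods of the study), kept properly paired primary alignments without duplicates or mitochondrial reads, and computed RPKM coverage in bins with deepTools. The deposited signal is this coverage multiplied by a factor from the yeast (sacCer3) spike-in reads of the library. Regions of the blacklist were kept for TEs. The methods name 10 kb bins for TEs, but the values held more different patterns than the genome has such bins. How bins were joined to copies, and the spike-in constant for LMNB1 and IGG, are not given in the sources used here. A mapping quality filter is not given in the sources used here.

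From the deposited values, whole reads were recovered by dividing each library by its smallest step, with a tolerance of 0.05 reads. Values were averaged over the copies of each of 1225 families, and the relative scale divided them by the median family of the library. Replicates of a group were not identical (chi-square over families of at least 8.30 per degree of freedom, which is too high as a measure of noise, since a read can count in several copies). Families and copies were tested with limma 3.58.1 in R 4.3.3 on log2 values with a pseudocount of 0.1 times the median. All 24 LAP2B libraries entered the LAP2B fits and all 36 libraries the antibody fits. Adjusted p-values are by Benjamini-Hochberg, with a threshold of 0.05, and copies in the lowest 0.1 by mean level were left out of the tests of copies. Levels per library, ratios and class contrasts were tested by exact permutation F tests over 15400 assignments of 12 libraries (Python 3.11.15). Both tests were checked on simulated data, limma on the relative scale alone and with noise drawn independently for each family. That check does not cover the spike-in scale or copies that share reads.

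Named copies were at most 2 that rose most and 2 that fell most in naive QKO on the relative scale, among those called and without overlap between QKO and WT libraries. The members, lists and tests were chosen with earlier results of these data known. Alternatives changed the pseudocount, the filter, the scaling, the summary over copies, the libraries fitted, the replicate block and the classes. After seeing the data, edgeR 4.0.16 quasi-likelihood tests on the recovered reads were added, as was the contrast of TKO with LBRKO. In naive QKO against WT on the relative scale, edgeR called 982 families and limma 984. The gene tables, the z-score table and the H3K9me3 samples were not used here.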

Additional observations from a re-analysis of the deposited data

Results flagged for a closer look

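Genotype effects on LAP2B over L1MdGf that differed between naive cells and EpiLCs, tested as an interaction term with limma over 1225 families, were selected for a closer look. A positive value means a smaller loss, or a higher level, in EpiLCs than in naive cells. In QKO the EpiLC change minus the naive change was 1.02 for L1MdGf_I (limma adjusted p = 0.016) and 1.07 for L1MdGf_II (adjusted p = 0.012) on the spike-in scale. These calls were lost without WT EpiLC replicate 2, without WT naive replicate 2 and with a pseudocount of 1 times the median. On the relative scale the term was 0.28 (limma adjusted p = 0.00076) and 0.37 (adjusted p = 3.9e-06) in QKO, and 0.18 (adjusted p = 0.032) and 0.22 (adjusted p = 0.0025) in LBRKO. The LBRKO calls were lost with the mean family and with the median over copies, and for L1MdGf_I also without 7 of 12 single libraries. In each of these results the EpiLC libraries of the mutant lay nearer to WT than the naive libraries did. Over the 25 L1Md families the medians of these terms were 1.03 in QKO on the spike-in scale, 0.35 in QKO and 0.23 in LBRKO on the relative scale. The median family stood at 0.68 for the spike-in QKO term, and the part of that shift in the L1MdGf values was not tested. WT IGG over L1MdGf_I was also higher in EpiLCs on the spike-in scale (0.88, SE 0.60, limma adjusted p = 0.17), at 0.43 without EpiLC IGG replicate 2. Mean QKO LAP2B over L1MdGf_I on that scale was 0.358 in naive cells and 0.704 in EpiLCs, beside WT IGG means of 0.343 and 0.698. The spike-in constant of IGG is not stated.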

How the results depend on the processing

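The changes of L1MdGf against WT in naive LBRKO and QKO on the relative scale, in naive TKO and in QKO of both stages on the spike-in scale, and the QKO interaction on the relative scale kept their direction and their call under every alternative run. Of 1894 alternative values for 168 results, 1610 kept direction and side of the threshold, 93 reversed, 77 lost and 18 gained a call, and 96 moved. The causes were not tested.  Values are log2 changes on the relative scale unless said otherwise, and contrasts are given as their difference from WT. After division by the mean family, naive TKO against WT gave -0.28 for L1MdGf_I, naive QKO against LBRKO gave -0.30 for L1MdGf_I, and naive TKO against LBRKO gave -0.014 for L1MdGf_II. EpiLC LBRKO against WT gave -0.14 for L1MdGf_I and -0.11 for L1MdGf_II, EpiLC TKO against WT gave -0.27 for L1MdGf_II, and EpiLC QKO against WT gave -0.21 for L1MdGf_I and -0.24 for L1MdGf_II. EpiLC QKO against TKO gave 0.036 for L1MdGf_II, EpiLC QKO against LBRKO gave -0.070 for L1MdGf_I and -0.13 for L1MdGf_II, and EpiLC TKO against LBRKO gave -0.055 for L1MdGf_I and -0.16 for L1MdGf_II. Interaction of LBRKO gave 0.28 for L1MdGf_I and 0.31 for L1MdGf_II, interaction of TKO gave 0.080 for L1MdGf_I and 0.16 for L1MdGf_II, and EpiLC against naive WT gave -0.36 for L1MdGf_I and -0.39 for L1MdGf_II. LMNB1 EpiLC against naive WT gave -0.25 for L1MdGf_I and -0.30 for L1MdGf_II, naive LAP2B against IGG WT gave 0.46 for L1MdGf_I, and naive LMNB1 against IGG WT gave 0.63 for L1MdGf_I. Naive LAP2B against LMNB1 WT gave -0.17 for L1MdGf_I and -0.23 for L1MdGf_II, naive LBRKO against IGG gave 0.039 for L1MdGf_I and 0.17 for L1MdGf_II, and EpiLC LAP2B against IGG WT gave 0.31 for L1MdGf_I. EpiLC LMNB1 against IGG WT gave 0.58 for L1MdGf_I, EpiLC LAP2B against LMNB1 WT gave -0.28 for L1MdGf_I and -0.32 for L1MdGf_II, and EpiLC LBRKO against IGG gave 0.16 for L1MdGf_I and 0.33 for L1MdGf_II. EpiLC TKO against IGG gave 0.11 for L1MdGf_I, and EpiLC QKO against IGG gave 0.095 for L1MdGf_I and 0.21 for L1MdGf_II. After division by the mean copy, naive TKO against WT (relative) gave 356 lower copies and 83 higher copies. With the median over copies, EpiLC TKO against WT (spike-in) gave -0.55 for L1MdGf_II, naive TKO against WT gave -0.15 for L1MdGf_I, and naive QKO against LBRKO gave -0.078 for L1MdGf_I and -0.075 for L1MdGf_II. EpiLC TKO against WT gave -0.11 for L1MdGf_II, EpiLC QKO against LBRKO gave 0.073 for L1MdGf_I, and interaction of LBRKO gave 0.16 for L1MdGf_I and 0.22 for L1MdGf_II. Interaction of TKO gave 0.055 for L1MdGf_I and 0.052 for L1MdGf_II, EpiLC against naive WT gave -0.11 for L1MdGf_I, and LMNB1 EpiLC against naive WT gave -0.056 for L1MdGf_I and -0.11 for L1MdGf_II. IGG EpiLC against naive WT gave 0.020 for L1MdGf_I, naive LAP2B against IGG WT gave 0.22 for L1MdGf_I, and naive LMNB1 against IGG WT gave 0.19 for L1MdGf_I. Naive LAP2B against LMNB1 WT gave -0.0046 for L1MdGf_II, EpiLC LAP2B against IGG WT gave 0.10 for L1MdGf_II, and EpiLC LAP2B against LMNB1 WT gave -0.024 for L1MdGf_I. EpiLC LBRKO against IGG gave -0.17 for L1MdGf_I and -0.11 for L1MdGf_II, EpiLC TKO against IGG gave -0.0038 for L1MdGf_II, and EpiLC QKO against IGG gave -0.098 for L1MdGf_I. The ratio of L1MdGf over L1MdTf naive gave an exact p of 0.38 and -0.072 for QKO minus WT, the ratio of L1MdGf over L1MdA naive gave an exact p of 0.77, 0.027 for LBRKO minus WT and 0.030 for QKO minus WT, and the ratio of L1MdGf_I over L1MdGf_II naive gave an exact p of 0.96. The ratio of L1MdGf over L1MdTf EpiLC gave an exact p of 0.36, -0.036 for TKO minus WT and -0.0066 for QKO minus WT, and the ratio of L1MdGf_I over L1MdGf_II EpiLC gave an exact p of 0.40 and -0.021 for QKO minus WT. With the mean of log2 values over copies, the lamina contrast naive gave -0.35 for LBRKO minus WT and -0.63 for QKO minus WT, the lamina contrast EpiLC gave -0.15 for LBRKO minus WT, and the IGG class contrast EpiLC gave -0.016 for TKO minus WT. With a pseudocount of 1 times the median, interaction of QKO (spike-in) gave 0.59 for L1MdGf_I and 0.55 for L1MdGf_II, naive QKO against LBRKO gave -0.048 for L1MdGf_II, and naive LBRKO against WT (spike-in) gave 3894 lower copies. EpiLC LBRKO against WT (spike-in) gave 242 lower copies and 28 higher copies, EpiLC TKO against WT (spike-in) gave 625 lower copies, and EpiLC LBRKO against WT (relative) gave 333 lower copies and 27 higher copies. EpiLC TKO against WT (relative) gave 19 lower copies, and EpiLC QKO against WT (relative) gave 204 lower copies and 42 higher copies. With classes by LMNB1 alone, the lamina contrast naive gave -0.41 for LBRKO minus WT, -0.083 for TKO minus WT and -0.63 for QKO minus WT, and the lamina contrast EpiLC gave -0.24 for LBRKO minus WT and -0.20 for TKO minus WT. With classes from the other stage, the lamina contrast EpiLC gave -0.015 for LBRKO minus WT, -0.25 for TKO minus WT and -0.30 for QKO minus WT, and the IGG class contrast EpiLC gave -0.040 for TKO minus WT. With edgeR on recovered reads, EpiLC TKO against WT (spike-in) gave -0.64 for L1MdGf_II. There edgeR called 1 family and limma 194. With edgeR and TMM scaling, naive TKO against WT gave -0.0041 for L1MdGf_I, interaction of TKO gave 0.0098 for L1MdGf_II, and IGG EpiLC against naive WT gave 0.0079 for L1MdGf_I. Naive LAP2B against LMNB1 WT gave -0.012 for L1MdGf_II, naive TKO against IGG gave -0.010 for L1MdGf_II, and EpiLC LAP2B against LMNB1 WT gave -0.010 for L1MdGf_I. EpiLC TKO against IGG gave -0.0012 for L1MdGf_II. When only the 12 libraries of a stage were fitted, EpiLC TKO against WT (spike-in) gave -0.61 for L1MdGf_II, naive QKO against LBRKO gave -0.077 for L1MdGf_II, and EpiLC QKO against TKO gave -0.16 for L1MdGf_I. Without the lowest 0.1 of families, naive QKO against LBRKO gave -0.077 for L1MdGf_II. With no filter on copies, EpiLC QKO against WT (spike-in) gave 3 higher copies.

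Pairing by replicate number was checked on the relative scale only, which removes shifts in the level of a library. In naive cells, deviations from the group means of LAP2B libraries that share a number correlated at -0.23 to 0.22 over families. In EpiLCs they correlated at -0.24 to 0.28. The medians were 0.034 and 0.021, against -0.030 and -0.012 for libraries of different numbers. A pairing in the level of libraries would not show in this check. With the replicate block, EpiLC TKO against WT (spike-in) gave -0.62 for L1MdGf_II, naive QKO against LBRKO gave -0.077 for L1MdGf_II, and the ratio of L1MdGf over L1MdA naive gave an exact p of 0.10. The IGG class contrast EpiLC gave an exact p of 0.061, and EpiLC TKO against WT (relative) gave 2 lower copies. The block changed no other call.

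Leaving out single libraries gave the following lowest and highest values. EpiLC TKO against LBRKO (spike-in) gave -0.38 to 0.050 for L1MdGf_I, naive LBRKO against WT (spike-in) gave -0.86 to -0.59 for L1MdGf_I and -0.87 to -0.57 for L1MdGf_II, and EpiLC QKO against TKO (spike-in) gave -1.0 to -0.58 for L1MdGf_I and -0.91 to -0.53 for L1MdGf_II. Interaction of QKO (spike-in) gave 0.80 to 1.15 for L1MdGf_I and 0.86 to 1.21 for L1MdGf_II, EpiLC TKO against WT (spike-in) gave -0.79 to -0.36 for L1MdGf_I and -0.84 to -0.45 for L1MdGf_II, and interaction of TKO (spike-in) gave 0.31 to 0.73 for L1MdGf_I and 0.40 to 0.78 for L1MdGf_II. EpiLC against naive WT (spike-in) gave -0.26 to 0.086 for L1MdGf_I and -0.30 to 0.037 for L1MdGf_II, EpiLC QKO against LBRKO gave 0.12 to 0.16 for L1MdGf_I, and interaction of LBRKO gave 0.14 to 0.21 for L1MdGf_I. Naive QKO against LBRKO gave -0.11 to -0.054 for L1MdGf_II, EpiLC TKO against WT gave -0.13 to -0.053 for L1MdGf_I, and interaction of TKO gave -0.048 to 0.0049 for L1MdGf_II. Naive TKO against WT gave -0.020 to 0.044 for L1MdGf_I, EpiLC against naive WT gave -0.030 to 0.046 for L1MdGf_I, and LMNB1 EpiLC against naive WT (spike-in) gave -0.0089 to 0.17 for L1MdGf_II. LMNB1 EpiLC against naive WT gave -0.015 to 0.047 for L1MdGf_II, IGG EpiLC against naive WT gave -0.042 to 0.040 for L1MdGf_I, and EpiLC QKO against IGG gave -0.27 to -0.20 for L1MdGf_I. EpiLC TKO against IGG gave -0.0067 to 0.019 for L1MdGf_II, naive TKO against IGG gave -0.0066 to 0.070 for L1MdGf_I and -0.019 to 0.030 for L1MdGf_II, and EpiLC LAP2B against IGG WT gave -0.022 to 0.067 for L1MdGf_I. EpiLC LAP2B against LMNB1 WT gave -0.029 to 0.045 for L1MdGf_I, naive LAP2B against IGG WT gave -0.021 to 0.056 for L1MdGf_I, and naive LAP2B against LMNB1 WT gave -0.026 to 0.037 for L1MdGf_II. EpiLC LMNB1 against IGG WT gave -0.025 to 0.049 for L1MdGf_I, the ratio of L1MdGf over L1MdA naive gave -0.020 to 0.0017 for LBRKO minus WT, and the ratio of L1MdGf_I over L1MdGf_II naive gave -0.014 to 0.027 for LBRKO minus WT. The IGG class contrast EpiLC gave -0.024 to 0.049 for TKO minus WT, the ratio of L1MdGf over L1MdTf EpiLC gave -0.053 to 0.0055 for LBRKO minus WT, and the ratio of L1MdGf over L1MdA EpiLC gave -0.0032 to 0.011 for QKO minus WT. Naive LBRKO against WT (spike-in) gave 793 to 2557 lower copies and 42 to 83 higher copies, naive TKO against WT (spike-in) gave 4083 to 7415 lower copies and 8 to 22 higher copies, and EpiLC LBRKO against WT (spike-in) gave 6 to 114 lower copies and 3 to 9 higher copies. EpiLC TKO against WT (spike-in) gave 1 to 752 lower copies and 1 to 3 higher copies, EpiLC QKO against WT (spike-in) gave 3 to 5 higher copies, and naive LBRKO against WT (relative) gave 1349 to 1764 lower copies and 98 to 147 higher copies. Naive TKO against WT (relative) gave 83 to 272 lower copies and 59 to 124 higher copies, EpiLC LBRKO against WT (relative) gave 41 to 142 lower copies and 6 to 17 higher copies, and EpiLC TKO against WT (relative) gave 1 to 10 lower copies. EpiLC QKO against WT (relative) gave 28 to 102 lower copies and 6 to 32 higher copies.

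The depth limits single copies, since the median L1MdGf copy held 12 to 49 reads per library. The 3 libraries per group limit every comparison. IGG was profiled in WT alone, LBRKO was made from WT and QKO from TKO cells, and copies with shared reads cannot be told apart.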
